A study of Mus musculus with 10 samples.

Results

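Csad, Cdo1, Cbs, Cth, Gclc, Gclm, Gss and Suox encode the liver enzymes that make cysteine and turn it into taurine, glutathione or sulfate. These 8 genes were taken by symbol from the array annotation, in which each has 1 probe set, out of 19933 genes that could be tested singly. The set was chosen on the knockout and wild-type values of these same arrays, so those values are a description here and not a test of the genes. The livers came from 5 Nr1d1-/- (KO) mice and 5 wild-type (WT) mice, all male, 10 to 12 weeks old, C57Bl/6, fed chow in cycles of 12 h light and 12 h dark, and killed at ZT10, which is 10 h after lights on. Rev-erb alpha, the nuclear receptor made from Nr1d1, represses transcription within the circadian clock. The labels give no tissue limit of the knockout. The KO line had at least 7 generations of backcrossing behind it, while WT animals were purchased, so genotype and origin of the mice cannot be told apart. Each liver was hybridised alone to an Affymetrix Mouse Gene 1.0 ST array, and values are log2 of the authors' normalised intensity. With 1 time of day, a change of level and a shift of a daily rhythm cannot be told apart either.

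Methionine passes its sulfur to homocysteine. Cystathionine beta-synthase (Cbs) and cystathionine gamma-lyase (Cth) then move it to cysteine, a route called transsulfuration. Cysteine dioxygenase (Cdo1) oxidises cysteine to cysteine sulfinate, which cysteine sulfinate decarboxylase (Csad) commits to hypotaurine and taurine, while its transamination releases sulfite for sulfite oxidase (Suox). Glutamate-cysteine ligase, with its catalytic (Gclc) and modifier (Gclm) subunits, and glutathione synthetase (Gss) use cysteine for glutathione. In mouse liver taurine is the main amino acid joined to bile acids.

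The stretches before the transcription starts are shown for the 2 enzymes that were lower in KO liver (Csad, Gss), for the enzyme with the largest increase (Suox) and for Cbs, the member with an E-box match. Each is 250 bases long, 5′ to 3′ towards the start, from RefSeq on GRCm38.p6. Capitals mark matches on either strand to AGGTCA, the half-site bound by Rev-erb and ROR receptors, to its variant GGGTCA, or to the E-box CACGTG bound by the clock activators.
Csad, upstream start (chr15:102205053-102205302, minus strand): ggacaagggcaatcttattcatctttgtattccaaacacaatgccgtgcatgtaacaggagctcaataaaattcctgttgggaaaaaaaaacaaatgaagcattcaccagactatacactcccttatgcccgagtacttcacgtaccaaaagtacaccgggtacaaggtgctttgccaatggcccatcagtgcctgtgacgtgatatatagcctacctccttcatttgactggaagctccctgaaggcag
Csad, downstream start (chr15:102189044-102189293, minus strand): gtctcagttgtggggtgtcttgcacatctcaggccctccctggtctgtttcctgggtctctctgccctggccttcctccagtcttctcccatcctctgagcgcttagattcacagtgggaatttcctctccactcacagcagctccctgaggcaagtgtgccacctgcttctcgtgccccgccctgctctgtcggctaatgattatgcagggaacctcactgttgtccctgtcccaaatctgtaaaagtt
Gss (chr2:155592811-155593060, minus strand): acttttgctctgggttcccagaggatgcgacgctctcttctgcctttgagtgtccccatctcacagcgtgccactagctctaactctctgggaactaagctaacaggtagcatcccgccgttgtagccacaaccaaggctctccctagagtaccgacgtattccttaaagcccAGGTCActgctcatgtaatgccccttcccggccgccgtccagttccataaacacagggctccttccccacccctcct
Cbs (chr17:31637206-31637455, minus strand): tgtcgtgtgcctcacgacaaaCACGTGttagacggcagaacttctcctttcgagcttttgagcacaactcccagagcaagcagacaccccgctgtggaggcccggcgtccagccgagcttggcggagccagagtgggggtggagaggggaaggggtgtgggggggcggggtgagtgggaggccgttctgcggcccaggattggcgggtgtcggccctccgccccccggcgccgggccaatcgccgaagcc
Suox (chr10:128673919-128674168, minus strand): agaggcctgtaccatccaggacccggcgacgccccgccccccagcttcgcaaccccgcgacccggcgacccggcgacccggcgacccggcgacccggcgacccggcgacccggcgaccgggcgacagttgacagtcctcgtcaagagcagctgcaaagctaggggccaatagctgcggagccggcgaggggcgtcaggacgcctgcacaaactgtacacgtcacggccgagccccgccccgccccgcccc
Neither Csad window held any of these motifs. The Gss window held AGGTCA 77 bases before the start and the Cbs window held CACGTG 229 bases before it. Of 32851 such windows, 14.0% held AGGTCA, 11.6% GGGTCA and 6.02% CACGTG. RefSeq windows were at hand for 5 members, 6 windows in all, and for none of Cdo1, Cth and Gclc. Among the 6, only that of Gclm matched TGACNNNGC, the core of the antioxidant response element, which 10.2% of all windows hold. These matches describe letters in short windows, and which Csad start the probe set reads was not tested.

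The group labels were looked at first through Nr1d1 and a gene it represses. The single Nr1d1 probe set averaged 9.92 ± 0.45 in KO and 9.78 ± 0.16 in WT livers (log2 intensity, SD, n = 5 each), so it did not tell the groups apart, and which part of the gene it reads is not stated in the labels. Arntl, the clock activator gene repressed by Rev-erb alpha, was higher in every KO than in every WT liver (difference 2.13, SE 0.14, limma adjusted p = 3.2e-06). Limma called none of the 7 hepatocyte markers measured, 0 of which had an unadjusted p under 0.05, and their mean lay between 13.58 and 13.66 in KO and between 13.61 and 13.66 in WT livers (log2). The arrays KO 4, KO 5 and WT 1 had the widest interquartile range, and calls lost without them are named as such.

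Csad was the member with the largest difference, and it fell. Its probe set (10432939) read 8.63, 8.54, 8.53, 8.43 and 8.57 in the KO livers, against 9.73, 9.39, 9.12, 9.93 and 9.94 in the WT livers (log2 intensity). All KO livers lay below all WT livers, with 0.49 between the highest KO and the lowest WT liver. The means were 8.54 ± 0.071 in KO and 9.62 ± 0.36 in WT (SD, n = 5 each), which is a difference of -1.08 in the limma fit (SE 0.14), or 0.473-fold. On the linear scale this was an intensity of 373 ± 18.2 in KO and 807 ± 189 in WT. The WT livers were far more spread: their SD was 5.06 times that of the KO livers, with WT 3 and WT 2 the lowest and WT 4 and WT 5 the highest. With any 1 array left out the difference stayed between -1.21 and -1.0, and it was -1.03 without the 3 arrays of widest interquartile range.

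The 3 members that act before Csad, namely Cbs, Cth and Cdo1, were higher in KO liver. Cdo1, which makes the substrate of Csad, read 12.95, 12.98, 12.93, 12.98 and 12.97 in KO, against 12.66, 12.52, 12.72, 12.64 and 12.75 in WT livers. The KO livers lay within 0.049 of each other and above every WT liver, and the difference was 0.31 (SE 0.048), or 1.24-fold. Between Cdo1 and Csad, 2 successive steps, the differences from WT were thus 1.39 apart on the log2 scale and opposite in sign.

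Cbs, the entry to transsulfuration, read 12.58, 12.51, 12.40, 12.57 and 12.56 in KO, against 12.38, 12.20, 12.29, 12.05 and 12.19 in WT livers. Its difference was 0.30 (SE 0.063), or 1.23-fold, and the groups were only 0.017 apart, between KO 3 and WT 1. Cth, which releases cysteine from cystathionine, read 12.87, 12.75, 12.64, 12.78 and 12.74 in KO, against 12.63, 12.41, 12.49, 12.49 and 12.50 in WT livers. Its difference was 0.25 (SE 0.055), or 1.19-fold, with 0.011 between the same 2 livers. Cbs and Cth were thus higher in each KO liver, but by a margin far smaller than their spread within a genotype. Without the 3 arrays of widest interquartile range both fell short of the calling threshold, at differences of 0.31 and 0.28 with fewer arrays in the fit.

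Suox, which turns sulfite into sulfate on the branch that competes with Csad for cysteine sulfinate, was the member with the largest increase. It read 11.71, 11.65, 11.52, 11.77 and 11.58 in KO, against 11.34, 11.23, 11.07, 11.12 and 11.16 in WT livers. The lowest KO liver was 0.18 above the highest WT liver, and the difference was 0.46 (SE 0.063), or 1.37-fold. The SD was 0.098 in KO and 0.10 in WT, so the spread was alike in both genotypes, unlike that of Csad.

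The glutathione enzymes did not move together. Gss, which adds glycine in the last step, read 9.70, 9.65, 9.59, 9.74 and 9.74 in KO, against 10.06, 9.90, 9.98, 10.07 and 9.92 in WT livers. It fell by 0.30 (SE 0.051), to 0.812-fold, with no overlap between the groups. Gclc, the catalytic subunit of the rate-limiting ligase, read 12.12, 12.38, 12.24, 12.45 and 12.30 in KO, against 12.00, 11.95, 12.07, 12.29 and 12.21 in WT livers. Its groups overlapped, and the difference of 0.20 (SE 0.079) did not reach the threshold. Gclm, the modifier subunit, read 12.33, 12.38, 12.32, 12.36 and 12.35 in KO, against 12.39, 12.28, 12.35, 12.49 and 12.50 in WT livers. All KO livers lay inside the WT range, at a difference of -0.05 (SE 0.050).

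**Figure D1:**
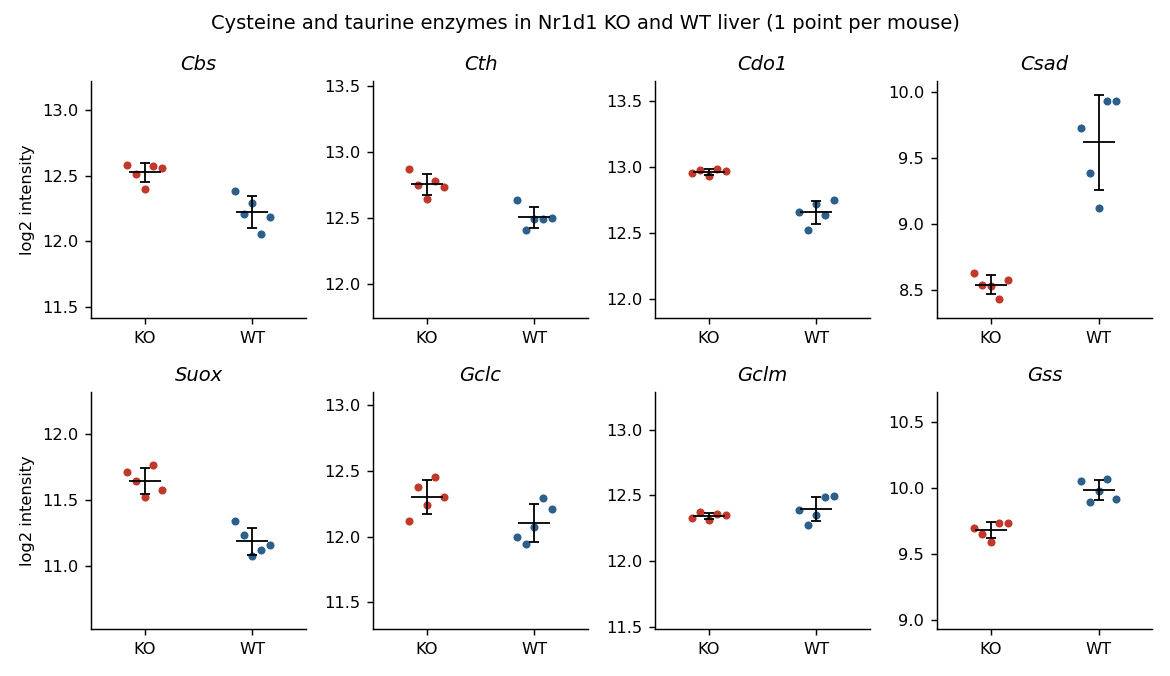
Log2 intensity of each of the 8 enzymes (vertical axes, all spanning the same range) in 5 KO and 5 WT livers, 1 point per mouse, with bars for mean and SD. Csad is lower in every KO liver and widely spread in WT, Cbs, Cth, Cdo1 and Suox are higher in every KO liver, Gss is lower, and Gclc and Gclm overlap.

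Calls were made in the limma fit over all genes, at an adjusted p (Benjamini-Hochberg) under 0.05. By that rule 4 members were called higher and 2 lower, and 2 were not called. Over all 19933 genes 5.61% were called, 3.17% higher and 2.44% lower, and in 7.00% the arrays of the genotypes did not overlap, which held for 6 members. Since the members were chosen with this contrast known, nothing is read from their share. Without the 3 arrays of widest interquartile range 4 of the members were called. The median difference was 0.22 over the 8 members and 0.01 over all genes. The WT livers had the larger SD in 7 of the 8 members, with Cth the exception, against 48.7% of all genes. The ratio of WT to KO SD was 5.06 for Csad, 4.30 for Cdo1 and 3.86 for Gclm. For Suox, Gclc, Gss and Cbs it was only 1.05 to 1.64, and the spread was not tested.

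**Figure D2:**
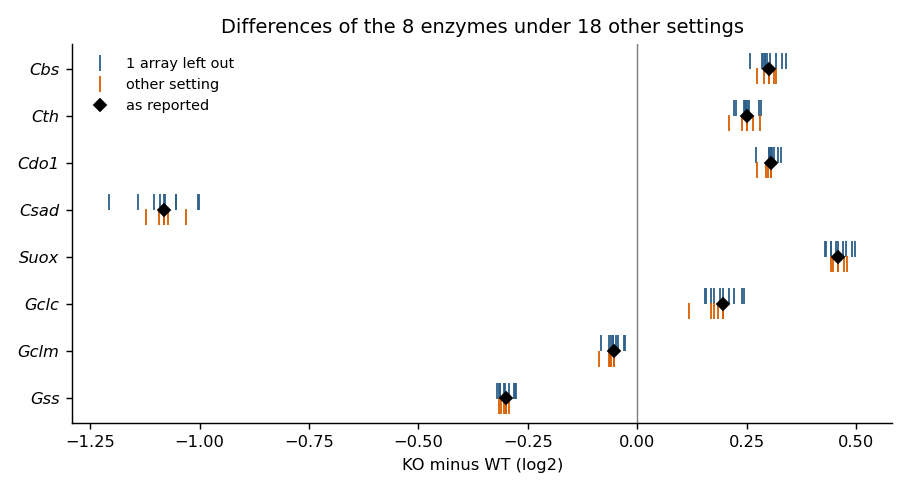
KO minus WT difference (horizontal axis, log2) of each enzyme as reported (diamond), with 1 array left out (upper ticks) and under the other settings (lower ticks). No tick lies on the other side of 0 from its diamond, and Csad stays between -1.21 and -1.0.

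Whether Csad varied together with the other enzymes from mouse to mouse was tested on deviations from the genotype means, which do not hold the contrast that chose the members. Over 10 arrays the closest relation was with Gclm, at Pearson r = 0.77 (exact permutation within genotype, two-sided p = 0.125) and Spearman rho = 0.72 (p = 0.110). Without WT 3 and WT 5, the livers farthest from the median of Csad, r was 0.80. For the other 6 enzymes r lay between -0.36 and 0.36, with exact p from 0.378 to 0.779. These values moved widely with 1 array left out, from -0.59 to -0.064 for Cbs, from 0.024 to 0.52 for Gss, from 0.14 to 0.51 for Gclc, from 0.12 to 0.35 for Cth, and across 0 for Cdo1 and Suox. For Gclm r lay between 0.69 and 0.89 with 1 array left out. None of the 7 relations passed, with adjusted p of 0.778 or 0.779 for r, and 0 had an unadjusted p under 0.05 over the 10 arrays as reported. With arrays centred on their medians, the permutation p of Gclm was 0.044 for r and 0.032 for rho (adjusted p = 0.308 and 0.227). Without KO 4 its permutation p for rho was 0.046 (adjusted p = 0.321). WT livers carried 96.2% of the squared deviations of Csad, so these values rest almost wholly on 5 mice.

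The genes around the members were read from 8 lists of sulfur amino acid, bile acid and stress genes, which share some entries. Of 95 measured genes that are not members, 7 were called higher, 7 lower and 81 were not called, 14.7% called against 5.61% of all genes. Their median difference was 0.038. The lists were drawn up with earlier results of these arrays known, so this share is a description. For these genes limma adjusted p-values are over all genes tested.

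On the methionine side, 2 homocysteine methyltransferase genes, Bhmt and Bhmt2, rose beside Cbs and Cth. Bhmt, betaine-homocysteine methyltransferase, averaged 13.54 ± 0.052 in KO and 13.24 ± 0.093 in WT livers (log2, SD, n = 5 each), a difference of 0.30 (SE 0.053, adjusted p = 0.00520). All 3 probe sets of Bhmt were higher, by 0.30 to 0.47. Bhmt2, its close paralog, which uses S-methylmethionine as methyl donor, read 12.84 to 12.97 in KO and 12.63 to 12.69 in WT livers, a difference of 0.26 (SE 0.041, adjusted p = 0.00287). Of 12 genes of that list that are not members, the other 10 were not called. They include Mat1a, the liver methionine adenosyltransferase, at 0.12, Mtr, the methionine synthase gene, at 0.013, and Mtrr at -0.32. Mat1a, Mtr and Mtrr are named here after their values were seen. Signal may be shared between Bhmt and Bhmt2. The call of Bhmt was lost without the 3 arrays of widest interquartile range (adjusted p = 0.0532).

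Of 17 further genes of cysteine breakdown and sulfur oxidation, 2 rose and 3 fell. Ethe1, the mitochondrial persulfide dioxygenase that oxidises sulfur from sulfide, averaged 10.84 ± 0.081 in KO and 10.26 ± 0.18 in WT livers, a difference of 0.58 (SE 0.081, adjusted p = 0.00103), with no overlap. Gphn, gephyrin, completes the molybdenum cofactor that sulfite oxidase needs, and it rose by 0.33 (SE 0.059, adjusted p = 0.00626). The earlier genes of that cofactor, Mocs1, Mocs2 and Mocs3, named after their values were seen, were at 0.12, 0.22 and 0.04 and were not called. Gphn lost its call without the 3 arrays of widest interquartile range (adjusted p = 0.0936).

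The 3 genes that fell include 2 that encode kynurenine aminotransferases, enzymes that also act as cysteine-conjugate beta-lyases. Kyat1 read 10.77 to 11.16 in KO and 11.24 to 11.43 in WT livers, a difference of -0.40 (SE 0.069, adjusted p = 0.00418). Kyat3 fell by 0.51 (SE 0.093, adjusted p = 0.00659), with KO 5 just above WT 4. Papss1, which makes the activated sulfate used by sulfotransferases, fell by 0.40 (SE 0.097, adjusted p = 0.0287). It was no longer called when any 1 of 6 arrays was dropped, or without the 3 arrays of widest interquartile range (adjusted p up to 0.220).

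On the taurine side, Csad and the acyltransferase genes went opposite ways. Acnat1, which joins fatty acids to taurine in mouse, read 12.25 to 12.44 in KO and 11.35 to 11.88 in WT livers, a difference of 0.76 (SE 0.088, adjusted p = 0.000298). Acnat2, its close paralog, was 2.45 higher (SE 0.15, adjusted p = 2.0e-06), and the 2 may share signal. The other 7 genes of that list that are not members were not called, and all 7 are named here after their values were seen. Baat, the enzyme that joins bile acids to taurine, was at 0.22 (adjusted p = 0.0966). The taurine transporter Slc6a6 was at -0.20 (adjusted p = 0.449). Fmo1, a monooxygenase that forms taurine from hypotaurine, was at -0.05 (adjusted p = 0.669). Gadl1 was at 0.19, Ado at 0.16, Slc27a5 at 0.13 and Slc6a13 at -0.02 (adjusted p from 0.112 to 0.933). Of the 9 genes of the list that are not members, Acnat1 and Acnat2 included, 6 had an unadjusted limma p under 0.05. The median difference of the 9 was 0.16.

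**Figure D3:**
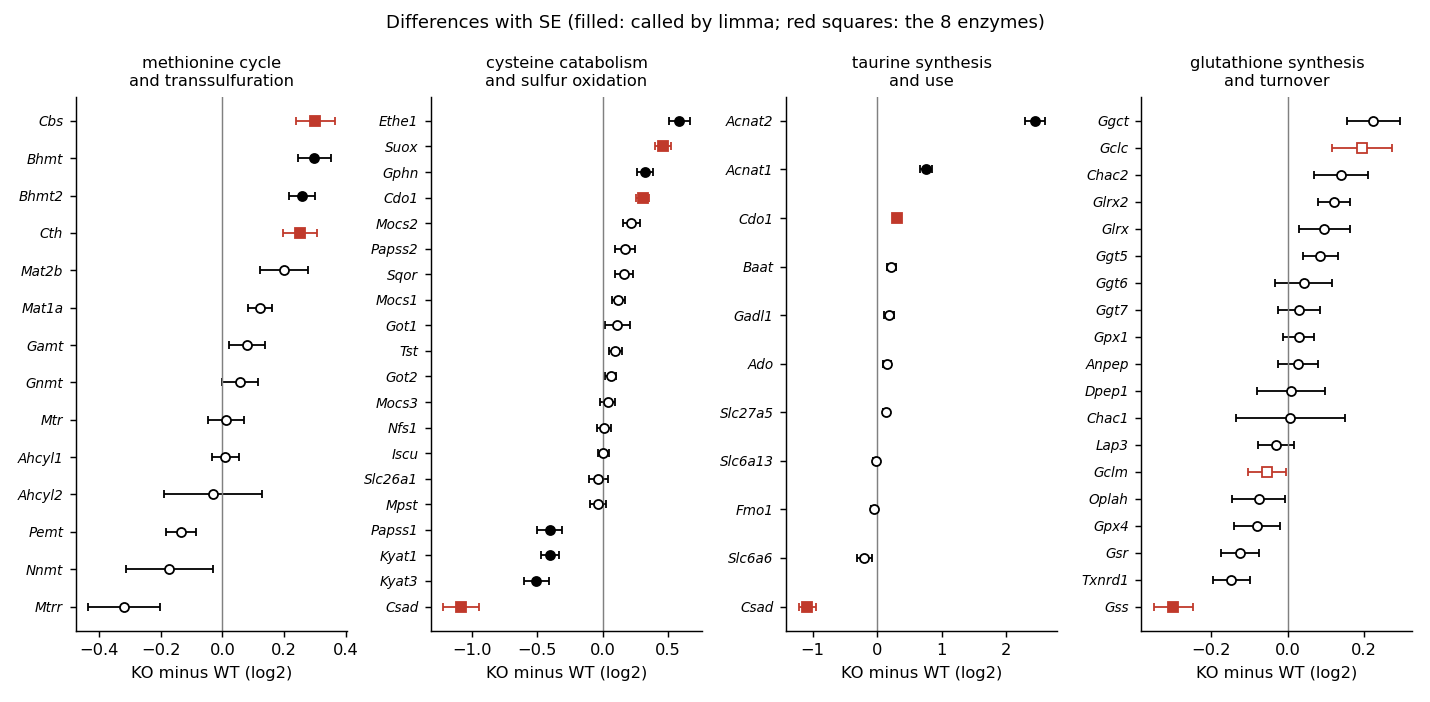
KO minus WT difference with SE (horizontal axes, log2, with a different range in each panel) for the measured genes of 4 lists. Filled marks were called by limma and red squares are the 8 enzymes. Csad is the lowest in both lists that hold it. Cdo1, Suox, Ethe1 and Gphn lie on the other side of 0, and the called genes Kyat1, Kyat3 and Papss1 on the side of Csad.

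Of 16 further genes of glutathione turnover none was called in limma, with differences no farther from 0 than 0.22, while 4 had an unadjusted p under 0.05. Among 14 genes of the Nrf2 list that are not members limma called none either, and 3 had an unadjusted p under 0.05. Besides Nrf2 targets, these 14 include Nrf2 itself (Nfe2l2) and its regulator Keap1. The smallest adjusted p there was that of Txnrd1, thioredoxin reductase, at a difference of -0.15 (adjusted p = 0.114). Of 9 genes that carry cystine, cysteine or neutral amino acids, only Slc1a5, a neutral amino acid exchanger, was called. It fell by 0.31 (SE 0.052, adjusted p = 0.00389), and the call was lost without the 3 arrays of widest interquartile range (adjusted p = 0.0575). Its means of 6.95 in KO and 7.25 in WT livers lay below the median of every array, which was 7.28 or more. The cystine carrier gene Slc7a11, named after its values were seen, lay below the lower quartile of all arrays in both genotypes, at 5.07 in KO and 5.07 in WT, so no level above background is shown for it.

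In the bile acid list Abcb11, the export pump for taurine and glycine conjugates, rose by 0.43 (SE 0.054, adjusted p = 0.000566), Cyp7a1, which starts bile acid synthesis, fell by 0.93 (SE 0.24, adjusted p = 0.0379), and 9 genes were not called. The call of Cyp7a1 was lost in 10 of 18 settings (adjusted p up to 0.227). Of 14 amino acid response genes that are not members, Asns, asparagine synthetase, fell by 2.84 (adjusted p = 2.3e-08) and Atf4 by 0.24 (adjusted p = 0.0269), while 12 were not called. Asns averaged 9.47 in WT livers. Its KO mean of 6.63 was little above the lower quartiles of the arrays, which reached 6.11. Cth, which is in that list as a target of Atf4, was higher. Without any 1 of 6 arrays, or without the 3 of widest interquartile range, Atf4 was not called (adjusted p up to 0.102).

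By the root mean square difference between profiles over the 10 arrays, each centred on its own mean, the gene most like Csad was Sort1, the sorting receptor sortilin, at 0.153, against a median of 0.602 over all 19932 other genes. Such profiles keep the KO minus WT difference, with which Csad was chosen. Genes lower in KO by a like amount are thus near Csad by construction, so nearness here is a description. Sort1 read 8.19, 8.31, 8.23, 8.45 and 8.23 in KO, against 9.21, 9.19, 8.92, 9.57 and 9.45 in WT livers. WT 3 was the lowest WT liver in both Csad and Sort1, and WT 4 and WT 5 were the highest 2 in both. Next came Blnk, a B cell adaptor gene, at 0.234, the mitotic kinase gene Wee1 at 0.239, Olfml1 at 0.242 and Slco1a1, an organic anion transporter gene, at 0.265. The call of Blnk (limma adjusted p = 0.00919) was lost without the 3 arrays of widest interquartile range (adjusted p = 0.105). Its KO mean of 6.38 was little above the lower quartiles of the arrays, which reached 6.11. The sixth gene was at 0.266, so the end of this short list is arbitrary.

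**Figure D4:**
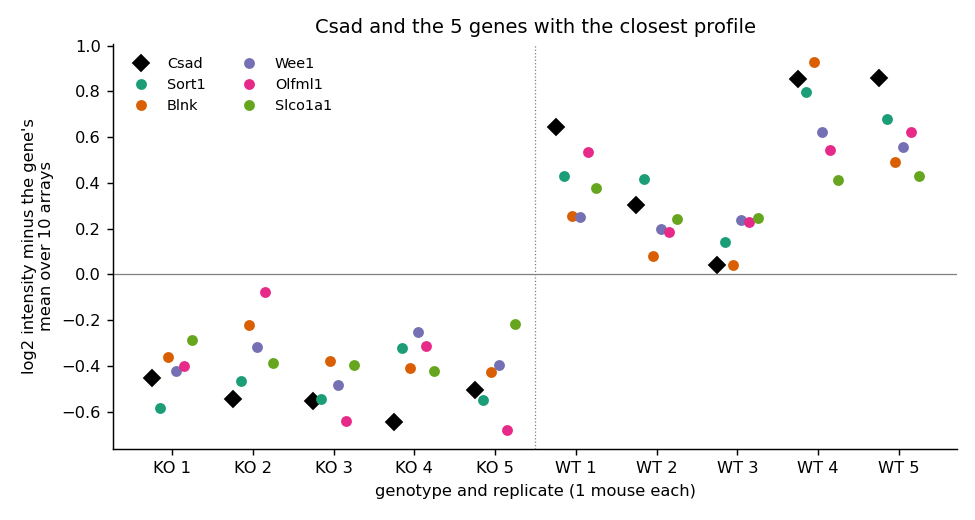
Log2 intensity minus the gene's own mean over the 10 arrays (vertical axis) in each KO and WT liver (horizontal axis) for Csad and the 5 genes nearest to it. All 6 genes lie below 0 in the KO livers and above 0 in the WT livers, a split that follows from how the 5 were picked. WT 3 is the lowest WT liver for Csad, Sort1 and Blnk.

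In whole liver RNA, fewer cells of a type and less RNA per cell cannot be told apart. Of 10 marker lists, 2 held a called gene, each named after its values were seen. Hal, a periportal histidine-degrading enzyme gene, rose by 0.42 (adjusted p = 0.00161), and the mean of the 4 periportal markers measured lay between 12.78 and 12.88 in KO and between 12.67 and 12.77 in WT livers. The other 3 were not called, with Cyp2f2 at -0.00044, Hsd17b13 at 0.083 and Pck1 at -0.12, so the list did not move as a whole. Sox9, of the cholangiocyte list, rose by 0.62 (adjusted p = 0.0129), a call lost without the 3 arrays of widest interquartile range (0.47, adjusted p = 0.0666). The mean of the 5 measured genes of that list lay between 6.80 and 7.01 in KO and between 6.69 and 6.82 in WT livers, with Cftr below the lower quartile of every array. Besides Sox9, Krt19 (-0.017), Krt7 (-0.11), Epcam (-0.0071) and Cftr (0.11) were not called, so this list did not move as a whole either. Limma called none of 7 pericentral markers (1 had an unadjusted p under 0.05), with list means between 11.90 and 12.03 in KO and between 11.84 and 12.13 in WT livers. The lists of Kupffer, sinusoidal endothelial, stellate, lymphoid, erythroid and pancreatic markers held no gene called by limma, and 0 to 2 genes each at an unadjusted p under 0.05. The part of these markers in the differences of the 8 enzymes was not tested.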

How the data were processed

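Liver RNA of 10 mice was measured on 10 arrays. The authors deposited 1 table of normalized intensities on a linear scale for 27541 probe sets. Per the submitters' processing notes they used RMA and Partek; versions and filters are not given in the sources used here. Intensities ran from 8.93 to 18280, and array medians from 156 to 165. No detection calls are held, so signal over background is unknown, and the number of arrays limits the precision.

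From these, log2 was taken. Of the probe sets, 21631 have 1 symbol in GEO's annotation of the array, 1317 several and 4593 none. Only the first kind was used, and each of 951 genes with more than 1 was read from its brightest on average. Of their gene IDs 21544 were found in RefSeq (GRCm38.p6), and 0 symbols needed an update. KO was compared with WT by limma 3.58.1 (R 4.3.3), lmFit and eBayes without covariates, two-sided, with Benjamini-Hochberg adjustment over 19933 genes. Each difference is the KO mean minus the WT mean of log2 values. Covariation was tested by exact permutation within genotype. The p-values reflect the spread among these mice alone.

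The members and lists were chosen with earlier results of these data known. Named genes are Nr1d1, Arntl, the members, each called gene of a pathway list (or its 2 of smallest adjusted p) and the 5 profiles nearest to Csad. Others are marked as such in the text. Of 109 pathway entries 6 had no probe set of their own. The limma step was tested on simulated data. It recovered 46.2% of log2 changes of 0.3, 89.9% of 0.5 and 97% of 1, and 4.88% of its calls were false. A gene not called may therefore still differ by a small amount. Alternatives were each array left out, the 3 widest arrays left out, repeated quantile normalization, median centring, no dim genes, other uses of several probe sets, array weights and another variance prior.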

Additional observations from a re-analysis of the deposited data

How the results depend on the processing

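No paired analysis was possible because the labels give the mice no shared replicate numbers. Under all 18 alternatives the 8 enzymes kept the sign of their difference. The calls of Csad, Cdo1, Suox and Gss were kept in all 18, and those of Cbs and Cth in 17. Leaving out the 3 arrays of widest interquartile range gave 295 genes higher and 232 lower, against 632 and 487, with fewer arrays in the fit. Under that setting 4 members were called, and of the pathway genes that are not members 5 were higher and 4 lower, against 7 and 7. With 1 array left out, 452 to 637 genes were higher and 349 to 611 lower, and of those pathway genes 7 to 8 were higher and 4 to 7 lower, the 4 without KO replicate 3. Of 24 genes outside the members that were recomputed, only Nr1d1, which was not called, changed sign in any setting, without KO replicate 3 (-0.0175), and with 1 array left out it ran from -0.0175 to 0.29. The covariation of Csad with Cdo1 ran from r = -0.29 to 0.76 with 1 array left out and was negative without WT replicate 2 (-0.29) or WT replicate 5 (-0.17). That with Suox ran from -0.37 to 0.28, was negative without WT replicate 3 (-0.37) and was -0.0081 after repeated quantile normalization. The cause was not tested. The median difference of all genes was 0.0083, and -0.00059 and -0.0033 after repeated quantile normalization and median centring.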
